A study of Homo sapiens with 15 samples.

Results

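The TRAIL and FAS death ligands and receptors are 7 genes, taken by symbol from the 26485 genes of a read count table: the ligands TNFSF10 (TRAIL) and FASLG, the TRAIL receptors TNFRSF10A, TNFRSF10B, TNFRSF10C and TNFRSF10D, and the FASLG receptor FAS. All 7 were in the table, and 6 passed the filter on low counts. FASLG did not. RNA was sequenced from the established human leukemia lines ML1 (myeloid) and U937 (of monocytic character) 24 h after treatment began. The ML1 groups received 10 nM prexasertib, an inhibitor of the checkpoint kinase CHK1, or diluent. The U937 groups received 10 nM prexasertib together with LSN622666 at 350 nM, 10 nM prexasertib alone, or diluent. All 5 groups, the diluent groups included, also received 5 µM Q-VD-OPh, a pan-caspase inhibitor that blocks the proteases these receptors act through. LSN622666, known here by its code name, was not given alone, and ML1 had no combination group. Each group held 3 libraries, and no label says that they came from separate cultures, so p-values measure the spread between these libraries, which may be technical.

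TRAIL and FASLG are members of the TNF ligand family that kill cells by gathering their receptors at the membrane. The death receptors FAS, TNFRSF10A (DR4) and TNFRSF10B (DR5) carry a cytoplasmic death domain that recruits the adaptor FADD, which brings in caspase-8 and caspase-10. TNFRSF10C (DcR1) has no intracellular part and TNFRSF10D (DcR2) has a truncated death domain, so both bind TRAIL without passing on the death signal and are called decoy receptors. CHK1 holds the cell cycle when replication is disturbed, and DNA damage is known to raise transcription of several of these genes through several transcription factors.

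Library totals ran between 49011222 and 87301014 counts, and the log2 CPM (CPM is the read count scaled to its library total) of libraries within a group had correlations between 0.982 and 0.9937. Of the 10 myeloid markers, such as CD33, SPI1 and LYZ, 8 to 10 exceeded 1 CPM in every group. Their summed level was 4894 to 6586 CPM in ML1 with prexasertib and 1993 to 2284 CPM in ML1 with diluent. It was 1090 to 1195 CPM with the combination, 813 to 966 CPM with prexasertib and 987 to 1136 CPM with diluent in U937. The part of this shift in the results below was not tested. The T cell genes CD3D and CD3E and the epithelial gene EPCAM had no count in any library. Of the 7 T and NK cell markers only NKG7 exceeded 1 CPM. Their summed level was 170 to 182 CPM in U937 with diluent and 12.5 to 14.2 CPM in ML1 with diluent. Of the 3 B cell markers 2 exceeded 1 CPM in every group, with sums between 2.56 and 16.5 CPM. Of the 5 epithelial and fibroblast markers 4 had counts in ML1 with prexasertib, with sums of 3.81 to 5.3 CPM.

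In ML1, TNFSF10 and all 5 receptors rose together with prexasertib. In U937 only TNFRSF10B, TNFRSF10C and TNFRSF10D passed the test, and each change was smaller than in ML1 by the test of the difference. With LSN622666 added in U937, TNFRSF10B, TNFRSF10D and TNFSF10 fell relative to prexasertib alone, and no gene of the set differed from diluent at the threshold. FASLG was at or near 0 throughout.

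**Figure D1:**
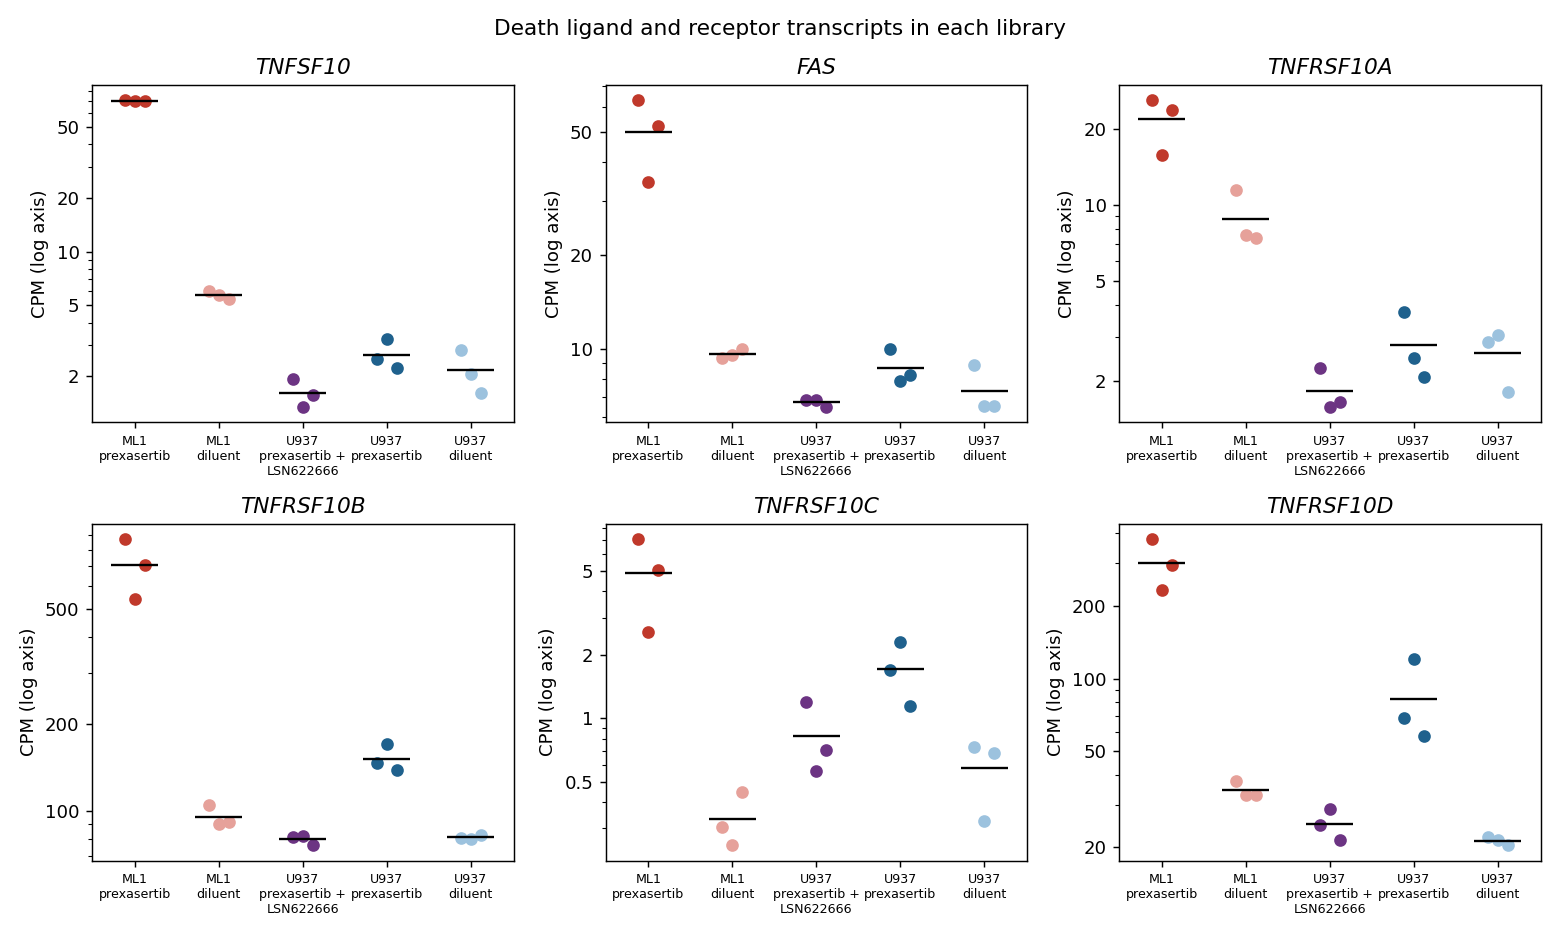
Level of the 6 genes that passed the low-count filter in every library, in CPM on a log axis; points are libraries and bars are means of 3. The ML1 prexasertib libraries stand above every other library for all 6 genes, and in U937 the prexasertib libraries stand apart from both other groups for TNFRSF10B and TNFRSF10D. Over all tested genes 25.3% rose with prexasertib in ML1 and 18.3% in U937. How many of all genes stand apart by library was not counted.

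The ligand TNFSF10 lies on chromosome 3 (172505508-172523507, minus strand, GRCh38, GENCODE v29). It had 70.6, 69.9 and 69.5 CPM in ML1 with prexasertib, against 6.01, 5.7 and 5.4 CPM in ML1 with diluent. It had 1.93, 1.35 and 1.57 CPM with the combination in U937. U937 with prexasertib had 2.49, 3.22 and 2.21 CPM, and U937 with diluent had 2.82, 2.07 and 1.62 CPM. The ML1 groups did not overlap each other or any U937 group, the prexasertib libraries of ML1 lay close together, and the prexasertib and diluent groups of U937 overlapped. TNFSF10 rose in ML1 with a log2 fold change of 3.62 ± 0.19 (SE, adjusted p = 1.4e-10). The U937 value was 0.27 ± 0.19 (adjusted p = 0.3, 95% interval -0.14 to 0.68), and the difference of U937 minus ML1 was -3.35 ± 0.27 (adjusted p = 8.4e-08). Of the 6 genes tested, TNFSF10 had the largest such difference. Fewer cells of a kind and less RNA per cell cannot be told apart in these bulk samples, here and for every gene below.

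The promoter of TNFSF10 is shown because this gene had the largest difference in response between the lines. It is the RefSeq window (GRCh38.p14, chr3:172523381-172523680, minus strand) that spans 250 bases before to 50 after the annotated start, with motif matches in capitals. The annotated start is the first that RefSeq lists, and it lies inside the GENCODE bounds given above. Positions run from this RefSeq start to the first base of a match.
TNFSF10: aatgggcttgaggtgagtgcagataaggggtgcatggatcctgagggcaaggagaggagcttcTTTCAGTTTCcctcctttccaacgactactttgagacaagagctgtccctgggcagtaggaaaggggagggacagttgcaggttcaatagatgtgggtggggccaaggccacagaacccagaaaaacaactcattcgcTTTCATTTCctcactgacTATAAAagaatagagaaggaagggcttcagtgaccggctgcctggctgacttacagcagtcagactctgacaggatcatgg
Interferon regulatory factors bind pairs of GAAA cores, and on the other strand such a pair reads TTTC. A pair 2 bases apart was found at -187, in a motif held by 3.65% of the 27305 promoter windows of the same length on either strand. A pair 1 base apart, TTTCNTTTC, was found at -49 and is held by 3.22% of the windows. TATAAA, the TATA box, was found at -31 and is held by 12%. None of the motifs GGGCGG (GC box), TGANTCA (AP-1), TTCNNNGAA (interferon gamma activated element) and TGACG (cyclic AMP response element core) was found in this window on either strand. The matches do not overlap, and each is a description of letters, not a tested site.

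FASLG (chromosome 1, 172659018-172666874, plus strand) encodes the ligand of FAS, best known from cytotoxic lymphocytes. It had no count in the 3 libraries of ML1 with prexasertib or the 3 of ML1 with diluent. The floor of 3 counts over a group allowed up to 0.0171 CPM in ML1 with prexasertib and 0.0148 CPM in ML1 with diluent, counting error only. In U937 it had 2, 2 and 0 counts with the combination, 0, 4 and 1 with prexasertib and 0, 0 and 2 with diluent. No difference in FASLG was detectable at this depth, and it was not tested.

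FAS (chromosome 10, 88990582-89015785, plus strand), the death receptor for FASLG, had 63.2, 34.5 and 52.2 CPM in ML1 with prexasertib, against 9.3, 9.55 and 9.96 CPM in ML1 with diluent. These groups did not overlap. In U937 it had 6.84, 6.81 and 6.5 CPM with the combination, 9.99, 7.88 and 8.21 CPM with prexasertib, and 8.88, 6.55 and 6.52 CPM with diluent. In U937 the libraries with prexasertib and with diluent overlapped, and the highest of each group was replicate 1. FAS rose in ML1 with a log2 fold change of 2.38 ± 0.19 (adjusted p = 2.1e-08). The change in U937 was 0.25 ± 0.19 (adjusted p = 0.34, 95% interval -0.15 to 0.64), and U937 minus ML1 was -2.13 ± 0.27 (adjusted p = 1.3e-05). With LSN622666 added, FAS changed by -0.37 ± 0.19 relative to prexasertib (adjusted p = 0.15, 95% interval -0.77 to 0.03).

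The promoter of FAS is shown as that of a receptor that, like TNFSF10, rose in ML1 and did not pass the test in U937. It is the RefSeq window of the same span (GRCh38.p14, chr10:88990548-88990847, plus strand), with matches in capitals. Its RefSeq start also lies inside the GENCODE bounds of the gene.
FAS: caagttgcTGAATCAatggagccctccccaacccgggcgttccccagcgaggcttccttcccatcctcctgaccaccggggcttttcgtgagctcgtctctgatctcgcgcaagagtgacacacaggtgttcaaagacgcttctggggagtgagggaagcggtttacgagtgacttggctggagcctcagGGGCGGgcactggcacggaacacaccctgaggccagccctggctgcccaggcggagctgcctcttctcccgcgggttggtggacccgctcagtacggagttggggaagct
The matches are TGAATCA at -242 and GGGCGG at -60. TGAATCA fits TGANTCA, a pattern searched for AP-1 (the dimers of JUN, FOS and ATF proteins) with any base in the middle. That loose pattern was found in 7.76% of the windows. The middle base here is A, and whether AP-1 binds this form was not tested. GGGCGG, the GC box of SP1, was found in 44.6%. The 2 windows shared none of the searched motifs.

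Transcripts on the opposite strand of FAS moved with it in ML1. ACTA2, which encodes smooth muscle actin and has exons that share 380 bases with FAS when all annotated transcripts are taken and 0 bases when only the basic set is, had 42.7, 26.7 and 46.3 CPM in ML1 with prexasertib. ML1 with diluent had 5.87, 4.81 and 4.51 CPM. ACTA2 rose in ML1 by 2.93 ± 0.32 on the log2 scale (adjusted p = 8.3e-07), while its U937 value was -0.47 ± 0.32 (adjusted p = 0.28). With the combination relative to prexasertib ACTA2 rose by 0.90 ± 0.32 (adjusted p = 0.042), beside -0.37 ± 0.19 for FAS. FAS-AS1, an antisense RNA of FAS, rose in ML1 by 2.80 ± 0.49 (adjusted p = 0.00012), with 86 to 116 counts in ML1 with prexasertib and 8 to 27 in ML1 with diluent. The library kit does not mark strand, so reads of FAS and of these transcripts cannot be told apart where they overlap. Whether FAS-AS1 shares exon bases with FAS was not measured.

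The death receptor TNFRSF10B (chromosome 8, 23020133-23069179, minus strand) had the highest level per length of the 7 genes in every group. Per kilobase of exon it averaged 170 ± 39.6 CPM in ML1 with prexasertib and 23.1 ± 1.93 CPM in ML1 with diluent (SD, n = 3 libraries each). The libraries of ML1 with prexasertib held 870, 541 and 709 CPM, against 105, 90 and 92.1 CPM in ML1 with diluent. Those of U937 held 81.5, 82.1 and 76.2 CPM with the combination, 147, 171 and 139 CPM with prexasertib, and 81, 79.9 and 82.9 CPM with diluent. In U937 the prexasertib libraries lay above both other groups, which overlapped each other. The log2 fold change of TNFRSF10B with prexasertib was 2.89 ± 0.15 in ML1 (adjusted p = 8.6e-11). In U937 it was 0.91 ± 0.14 (adjusted p = 0.00022). U937 minus ML1 was -1.98 ± 0.20 (adjusted p = 1.2e-06). It fell by 0.93 ± 0.14 with the combination relative to prexasertib (adjusted p = 0.00018). The combination differed from diluent by -0.02 ± 0.14 (adjusted p = 0.93), and the 95% interval, -0.32 to 0.27, bounds that difference.

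TNFRSF10A (chromosome 8, 23190452-23225126, minus strand), the other death receptor for TRAIL, was far lower per length. Its mean per kilobase was 8.04 ± 1.96 CPM in ML1 with prexasertib and 3.24 ± 0.828 CPM in ML1 with diluent. ML1 libraries had 25.9, 15.8 and 23.8 CPM with prexasertib, against 11.4, 7.58 and 7.39 CPM with diluent, with no overlap. U937 libraries had 2.26, 1.59 and 1.66 CPM with the combination, 3.78, 2.48 and 2.09 CPM with prexasertib, and 2.87, 3.06 and 1.82 CPM with diluent. The 3 groups of U937 overlapped along the order of their means. TNFRSF10A rose by 1.31 ± 0.26 in ML1 (adjusted p = 0.00045), the smallest ML1 change of the 6 genes. In U937 it changed by 0.10 ± 0.27 (adjusted p = 0.8, 95% interval -0.47 to 0.68), and the sign turned without U937 prexasertib replicate 1 (-0.21) or without U937 diluent replicate 3 (-0.13). U937 minus ML1 was -1.21 ± 0.38 (adjusted p = 0.025), a call that was lost in 7 of the 12 fits that left out 1 library, with adjusted p of 0.054 to 0.066. An antisense gene, TNFRSF10A-AS1, shares 224 exon bases with it, and 10.5% of its 50-base stretches also occur in other genes.

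The decoy receptor TNFRSF10D (chromosome 8, 23135588-23164030, minus strand) was next to TNFRSF10B in level per length in every group. It had 378, 233 and 294 CPM in ML1 with prexasertib, against 37.7, 33 and 33 CPM in ML1 with diluent. In U937 it had 24.7, 28.9 and 21.4 CPM with the combination, 68.7, 120 and 58 CPM with prexasertib, and 22.1, 21.5 and 20.4 CPM with diluent. Replicate 2 of U937 with prexasertib was the highest U937 library, and the lowest of that group still lay above every library of the other U937 groups. The log2 fold change of TNFRSF10D with prexasertib was 3.13 ± 0.23 in ML1 (adjusted p = 6.2e-09). In U937 it was 1.95 ± 0.22 (adjusted p = 1.2e-05), the largest U937 change of the 6 genes. U937 minus ML1 was -1.18 ± 0.30 (adjusted p = 0.0081). It fell by 1.72 ± 0.22 with the combination relative to prexasertib (adjusted p = 4.4e-05), and the combination differed from diluent by 0.23 ± 0.22 (adjusted p = 0.51, 95% interval -0.22 to 0.68).

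The decoy receptor TNFRSF10C (chromosome 8, 23102590-23117437, plus strand) had the lowest mean level per length of the 4 TRAIL receptors in every group. It had 7.08, 2.56 and 5.06 CPM in ML1 with prexasertib and 0.306, 0.249 and 0.444 CPM in ML1 with diluent, on 18 to 25 counts per diluent library. In U937 it had 1.19, 0.561 and 0.705 CPM with the combination, 1.69, 2.31 and 1.14 CPM with prexasertib, and 0.729, 0.324 and 0.684 CPM with diluent. The log2 fold change of TNFRSF10C with prexasertib was 3.89 ± 0.46 in ML1 (adjusted p = 1.7e-06). In U937 it was 1.56 ± 0.43 (adjusted p = 0.011), with U937 minus ML1 at -2.33 ± 0.61 (adjusted p = 0.0089). The U937 call was lost without prexasertib replicate 2 (1.26, adjusted p = 0.068) or without diluent replicate 2 (1.24, adjusted p = 0.057). Of its 50-base stretches 39.7% also occur in AC107959.4 or AC107959.5, annotated transcripts of the same place. Neither symbol is among the counted genes, so the TNFRSF10C count could include reads of these transcripts, which was not tested. No 50-base stretch was shared between any of the 7 genes.

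**Figure D2:**
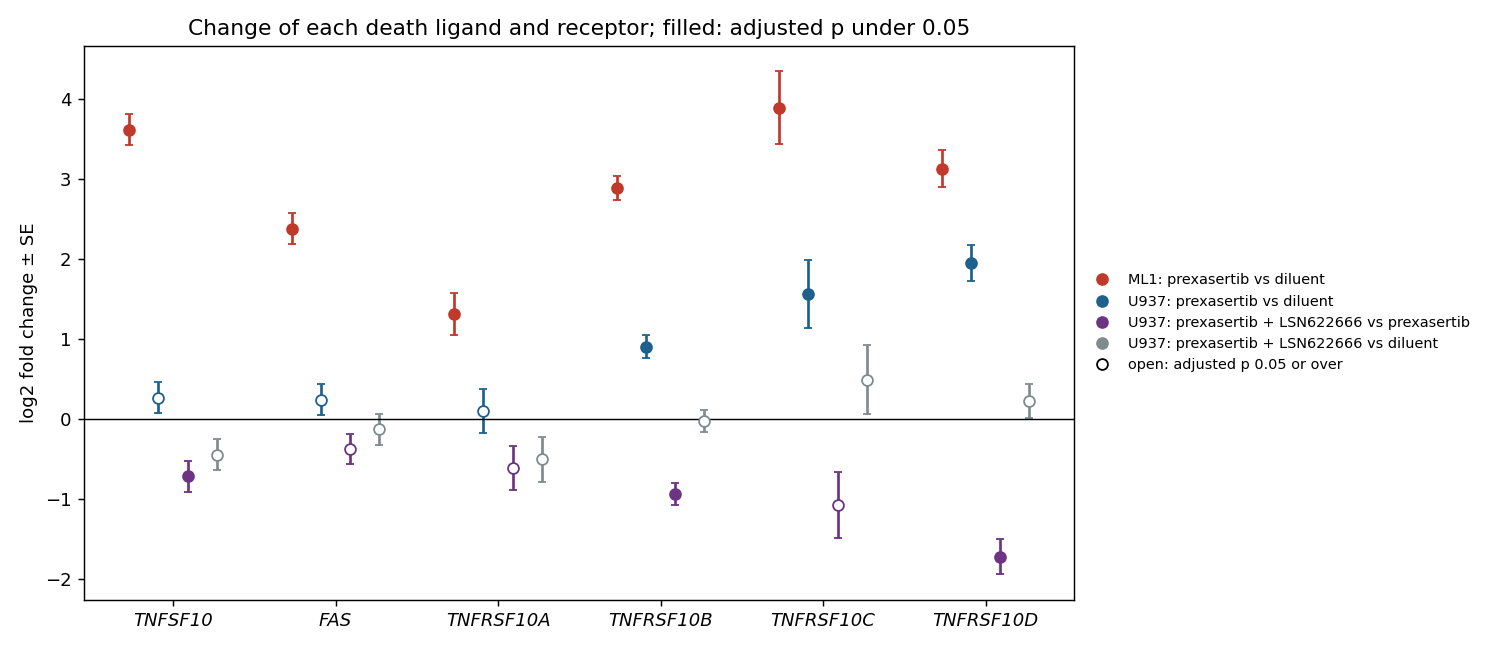
Log2 fold change ± SE of each gene in 4 comparisons; filled points have an adjusted p under 0.05. All 6 ML1 points are filled and lie between 1.31 and 3.89, the 3 filled U937 prexasertib points are TNFRSF10B, TNFRSF10C and TNFRSF10D, and no point of the combination against diluent is filled.

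Prexasertib in ML1 thus gave a rise of 6 of the 6 genes tested, where 25.3% of all 17243 tested genes rose and 23.5% fell. Their median log2 fold change was 3.01, against 0.024 over all tested genes. Within ML1 with prexasertib, replicate 1 was highest and replicate 2 lowest for FAS and for each of the 4 TRAIL receptors, while TNFSF10 hardly varied between the 3 libraries.

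In U937, 3 of the 6 genes rose with prexasertib, where 18.3% of tested genes rose and 12.8% fell. The median was 0.59, against -0.001 over all tested genes. Without prexasertib replicate 2, the U937 library with the highest TNFRSF10B, TNFRSF10C and TNFRSF10D of all U937 libraries, 2 of the 6 rose, TNFRSF10B by 0.79 and TNFRSF10D by 1.54. In that fit 1803 of all 17479 tested genes rose and 881 fell, against 3154 and 2205 of 17243 with the library kept. The difference of the prexasertib effect, U937 minus ML1, was lower for 6 of 6 genes, where 12.4% of tested genes were higher and 12.3% lower, with a median of -2.06 for the 6 genes and 0.03 for all.

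Adding LSN622666 to prexasertib in U937 lowered 3 of the 6 genes, TNFRSF10D, TNFRSF10B and TNFSF10, where 11.9% of tested genes rose and 17.1% fell. TNFSF10 fell by 0.71 ± 0.19 (adjusted p = 0.011), and this call was lost without prexasertib replicate 2 (-0.54, adjusted p = 0.08), without combination replicate 2 (-0.60, adjusted p = 0.051), or in a fit to these groups alone (-0.70, adjusted p = 0.087). TNFRSF10C changed by -1.07 ± 0.41 (adjusted p = 0.058) and TNFRSF10A by -0.60 ± 0.27 (adjusted p = 0.11). No label says that replicate numbers pair libraries, and they were taken to pair these groups because same-numbered libraries deviated together. With the replicate number as a block within each line 5 of the 6 genes fell. In that fit 3239 of the 17243 tested genes rose and 3830 fell. TNFRSF10C then stood at -1.11 (adjusted p = 0.017) and TNFRSF10A at -0.58 (adjusted p = 0.023). The block also covers U937 with diluent, where the numbers were not taken to pair. Without the block, 2 of the 6 fell when prexasertib replicate 2 or combination replicate 2 was left out. Over all genes 1104 of 17479 rose and 1793 fell in the former fit. In the latter 1846 of 17642 rose and 2710 fell.

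With the combination against diluent, 0 of the 6 genes were called by edgeR or by DESeq2, where 6.88% of tested genes rose and 4.11% fell (1186 against 709 genes, and 1528 against 236 with upper-quartile scaling). At an unadjusted p under 0.05, 1 gene remained, TNFSF10, at -0.44 ± 0.20 (adjusted p = 0.15, 95% interval -0.86 to -0.02). TNFRSF10A stood at -0.50 (95% interval -1.08 to 0.08), TNFRSF10C at 0.49 (-0.41 to 1.4) and FAS at -0.13 (-0.53 to 0.27). The last 3 intervals leave room for changes in both directions, and the comparison shares its combination libraries with the comparison above.

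Without drug, the lines already differed for 3 of the 6 genes, all lower in U937, where 32% of tested genes were higher in U937 and 29.4% lower. TNFSF10 differed by -1.38 ± 0.19 (adjusted p = 6e-06), TNFRSF10A by -1.76 ± 0.27 (adjusted p = 2.3e-05) and TNFRSF10D by -0.70 ± 0.22 (adjusted p = 0.0097). FAS stood at -0.39 ± 0.19 (adjusted p = 0.084), TNFRSF10C at 0.82 ± 0.46 (adjusted p = 0.13) and TNFRSF10B at -0.23 ± 0.14 (adjusted p = 0.16).

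The balance between death and decoy receptors for TRAIL was described as the share of TNFRSF10C and TNFRSF10D in the summed CPM per kilobase of the 4 TRAIL receptors. The decoy share was 33.6%, 33.1% and 32.4% in ML1 with prexasertib, against 26.9%, 27.9% and 27.8% in ML1 with diluent. In U937 it was 27.3%, 29.4% and 25.4% with the combination, 35.7%, 45.5% and 33.2% with prexasertib, and 24.5%, 23.5% and 22.9% with diluent. In both lines the prexasertib libraries lay above the diluent libraries without overlap. The summed level of the 4 receptors was 267 ± 63.3 CPM per kilobase in ML1 with prexasertib and 36.3 ± 3.51 in ML1 with diluent. In U937 it was 27.5 ± 1.82 with the combination, 62 ± 13.8 with prexasertib and 26.9 ± 0.324 with diluent. TNFRSF10A made up 3.01% of the sum in ML1 with prexasertib and 8.84% in ML1 with diluent. TNFRSF10B made up 64% in ML1 with prexasertib and 63.7% in ML1 with diluent. In U937 TNFRSF10B made up 60.1% with prexasertib and 72.8% with diluent. These shares depend on the exon lengths used and were not tested.

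**Figure D3:**
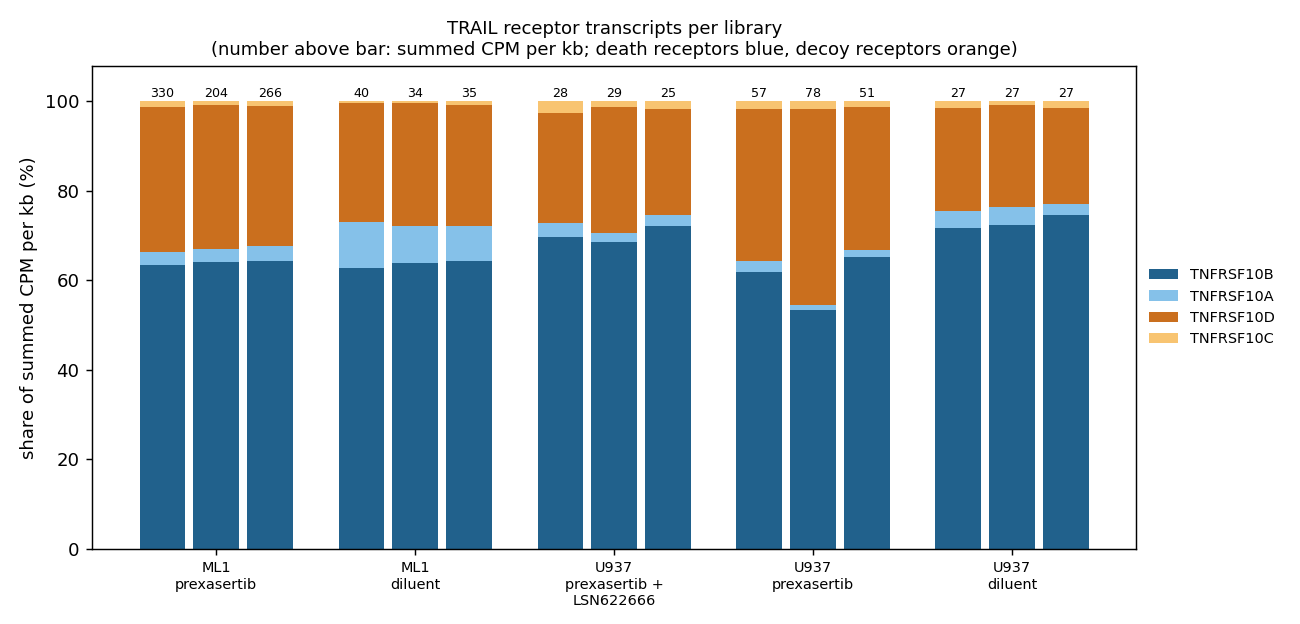
Share of each TRAIL receptor in the summed CPM per kilobase of the 4 receptors, 1 bar per library, with the summed level above it; blue is TNFRSF10B and TNFRSF10A, orange is TNFRSF10D and TNFRSF10C. The orange part is 32.4% to 33.6% in ML1 with prexasertib and 26.9% to 27.9% in ML1 with diluent, and it reaches 45.5% in U937 prexasertib replicate 2.

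The 4 TRAIL receptor genes lie side by side in 205 kb of chromosome 8, in the order TNFRSF10B, TNFRSF10C, TNFRSF10D and TNFRSF10A. Within 500 kb on either side were 14 other tested genes with a position in GENCODE v29, of which 3 rose and 2 fell in ML1 with prexasertib, where 25.3% of all tested genes rose and 23.5% fell. Among those that rose in ML1 were EGR3, an immediate early transcription factor, by 4.76, and ENTPD4 by 0.50, and those that fell were SORBS3 by 1.33 and R3HCC1 by 0.49. These neighbours are named after their values were seen. In U937 with prexasertib 1 of the 14 rose, EGR3, by 3.02, and 1 fell, RHOBTB2. Over all tested genes 18.3% rose and 12.8% fell there. RHOBTB2 shares 67 exon bases with the end of TNFRSF10B on the opposite strand, and changed by 0.01 ± 0.12 in ML1 (adjusted p = 0.95) and fell by 0.39 ± 0.12 in U937 (adjusted p = 0.019). With LSN622666 added to prexasertib 1 of the 14 rose, SORBS3, by 0.50, and 1 fell, EGR3, by 1.76. Over all tested genes 11.9% rose and 17.1% fell there. None of the 14 was called with the combination against diluent, where 6.88% of all tested genes rose and 4.11% fell.

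LOC286059, which RefSeq names as the antisense RNA of TNFRSF10B, was chosen after its values were seen, and is not among those 14 since its symbol has no position in GENCODE v29. It had 2.92, 2.45 and 1.84 CPM in ML1 with prexasertib, against 0.187, 0.119 and 0.0888 CPM in ML1 with diluent. In U937 it had 0.269, 0.301 and 0.158 CPM with the combination, 2.47, 5.42 and 2.18 CPM with prexasertib, and 0.129, 0.036 and 0.385 CPM with diluent. In ML1 it rose by 4.18 ± 0.56 with prexasertib (adjusted p = 7.8e-06). In U937 it rose by 4.25 ± 0.55 (adjusted p = 4.2e-05) and fell by 3.79 ± 0.52 with the combination relative to prexasertib (adjusted p = 7.9e-05). Its U937 minus ML1 difference was 0.07 ± 0.85 (adjusted p = 0.98), beside -1.98 ± 0.20 for TNFRSF10B itself.

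**Figure D4:**
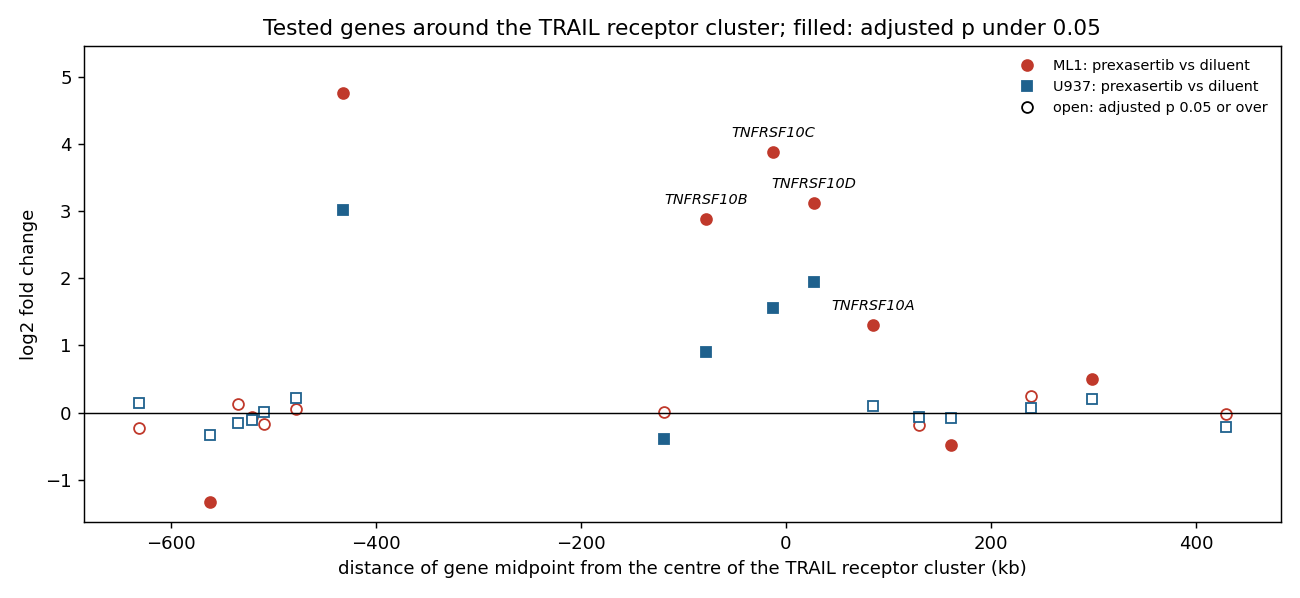
Log2 fold change with prexasertib of the tested genes with a GENCODE position within 500 kb of the TRAIL receptor cluster, by the distance in kb of its midpoint from the cluster's centre; circles are ML1, squares are U937, and filled points have an adjusted p under 0.05. The 4 receptor genes are filled in ML1, 3 of them are filled in U937, and most of the other genes shown are open in both lines.

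Downstream of the receptors, 25 genes were listed, from the adaptor FADD and the caspases to their inhibitors and the soluble decoys, and 24 were tested. The list was chosen with earlier results of these data known, so its counts and medians are description only. In ML1 with prexasertib 12 rose, 4 fell and 8 were not called, where 25.3% of all tested genes rose and 23.5% fell. BAX, a pore-forming protein of the mitochondrial arm, averaged 220 ± 28.3 CPM in ML1 with prexasertib and 85.2 ± 2.69 CPM in ML1 with diluent, and rose by 1.37 ± 0.12 (adjusted p = 7.2e-08). CASP10, an initiator caspase recruited by FADD, averaged 61.2 ± 1.65 CPM with prexasertib and 22 ± 4.26 CPM with diluent, and rose by 1.48 ± 0.15 (adjusted p = 4.1e-07). CFLAR, the inhibitor FLIP that competes with caspase-8, rose by 0.90 ± 0.12 (adjusted p = 6.5e-06). An initiator and its inhibitor thus both rose, and the median of the list was 0.28, against 0.024 over all tested genes.

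In U937 with prexasertib 6 of the 24 rose, 1 fell and 17 were not called, where 18.3% of all tested genes rose and 12.8% fell. The list's median was 0.09, against -0.001 over all tested genes. CASP10 averaged 30.8 ± 5.3 CPM with prexasertib and 15.3 ± 1.7 CPM with diluent and rose by 1.01 ± 0.15 (adjusted p = 0.00017). CFLAR rose by 0.71 ± 0.12 (adjusted p = 0.00043). FAF1, a protein that binds FAS, fell by 0.76 ± 0.12 (adjusted p = 0.0002). With LSN622666 added 8 fell, none rose and 16 were not called, where 11.9% of all tested genes rose and 17.1% fell, with CASP10 at -1.0 ± 0.15 (adjusted p = 0.0002) and the initiator CASP8 at -0.82 ± 0.16 (adjusted p = 0.0011). With the combination against diluent 1 rose, CFLAR, by 0.54 ± 0.12 (adjusted p = 0.0087), 1 fell, FAF1, by 0.55 ± 0.12 (adjusted p = 0.0079), and 22 were not called, where 6.88% of all tested genes rose and 4.11% fell. BID, which links caspase-8 to mitochondria, stood at -0.38 ± 0.12 (adjusted p = 0.057) and FADD at -0.29 ± 0.13 (adjusted p = 0.14).

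For the difference of the prexasertib effect, U937 minus ML1, 1 downstream gene was higher, 2 were lower and 21 were not called, where 12.4% of all tested genes were higher and 12.3% lower. BAX stood at -1.56 ± 0.17 (adjusted p = 3.6e-06), DAP3 at -0.64 ± 0.18 (adjusted p = 0.015) and FADD at 0.51 ± 0.18 (adjusted p = 0.043), while TRAF2 missed the threshold at 0.59 ± 0.22 (adjusted p = 0.056). BAX averaged 44.5 ± 3.86 CPM with prexasertib and 50.7 ± 4.88 CPM with diluent in U937. Between the lines without drug, 2 of the 24 were higher in U937, 13 lower and 9 not called, where 32% of all tested genes were higher and 29.4% lower. FAIM, an inhibitor of FAS-induced death, had 10, 3 and 1 counts in U937 with diluent and 833, 1092 and 586 counts in ML1 with diluent. TRAF2, an adaptor of TNF receptors, was lower in U937 by -1.84 ± 0.16 on the log2 scale (adjusted p = 1.4e-08), and CFLAR by -1.13 ± 0.12 (adjusted p = 2.3e-07).

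A second list held 24 transcription factors reported to act on these genes, all of them tested. It too was chosen with earlier results of these data known, so its counts and medians are description only. In ML1 with prexasertib 16 rose, 3 fell and 5 were not called, where 25.3% of all tested genes rose and 23.5% fell. The median was 1.08, against 0.024 over all tested genes. DDIT3 (CHOP), the stress factor known to activate TNFRSF10B, rose by 2.71 ± 0.19 (adjusted p = 3.9e-09). The AP-1 genes JUN and ATF3 rose by 6.72 ± 0.47 (adjusted p = 1.6e-08) and 7.84 ± 0.56 (adjusted p = 3.7e-08).

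In U937 with prexasertib 16 of the 24 factors rose, 1 fell and 7 were not called, where 18.3% of all tested genes rose and 12.8% fell. The median was 0.99, against -0.001 over all tested genes. DDIT3 averaged 62.2 ± 18.2 CPM with prexasertib and 10.1 ± 0.951 CPM with diluent, and rose by 2.63 ± 0.19 (adjusted p = 3.2e-07). KLF2, a factor of quiescent cells, rose by 4.97 ± 0.48 (adjusted p = 2.8e-06), JUN by 4.35 ± 0.42 (adjusted p = 6.5e-06) and EGR2, an immediate early factor, by 3.52 ± 0.38 (adjusted p = 7.8e-06). With LSN622666 added 18 fell, none rose and 6 were not called, where 11.9% of all tested genes rose and 17.1% fell. Of the 48 genes of both lists 26 were called here, and 17 without combination replicate 3. Over all tested genes 1362 rose and 2032 fell without that library, against 2046 and 2947 with it. DDIT3 fell to 10.1 ± 1.99 CPM with the combination, against 62.2 ± 18.2 CPM with prexasertib, a log2 fold change of -2.62 ± 0.19 (adjusted p = 9e-07). JUN changed by -3.84 ± 0.41 (adjusted p = 2.2e-05), FOXO3 by -1.39 ± 0.18 (adjusted p = 5.6e-05) and KLF2 by -3.05 ± 0.41 (adjusted p = 7.3e-05). With the combination against diluent 6 rose, none fell and 18 were not called, among them KLF2 by 1.93 ± 0.47 (adjusted p = 0.017), IRF7 by 1.26 ± 0.33 (adjusted p = 0.026) and TP73 by 1.38 ± 0.39 (adjusted p = 0.031), where 6.88% of all tested genes rose and 4.11% fell. TP73 was low here, with 47, 44 and 45 counts with the combination and 25, 2 and 14 with diluent. Of the 48 genes of both lists 8 were called in this comparison. Leaving out combination replicate 1 or 2 gave 2 calls, leaving out diluent replicate 2 gave 1, and leaving out diluent replicate 3 gave 3. Calls over all genes dropped too, from 1186 higher and 709 lower. They were 425 and 179 without combination replicate 1, and 909 and 474 without combination replicate 2. Without diluent replicate 2 they were 463 and 247, and without diluent replicate 3 they were 557 and 295.

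For U937 minus ML1, 3 factors had a higher prexasertib effect, 5 a lower one and 16 were not called, where 12.4% of all tested genes were higher and 12.3% lower. ATF3 stood at -2.91 ± 0.62 (adjusted p = 0.0029) and TP73 at 3.72 ± 0.47 (adjusted p = 1.4e-05). ATF3 averaged 185 ± 117 CPM with prexasertib and 6.04 ± 0.464 CPM with diluent in U937. In ML1 it averaged 1058 ± 122 CPM with prexasertib and 4.62 ± 1.47 CPM with diluent.

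Between the lines without drug, 5 factors were higher in U937, 11 lower and 8 not called, where 32% of all tested genes were higher and 29.4% lower. TP73 differed by -7.30 ± 0.37 (adjusted p = 1.1e-11), and IRF1 by -3.28 ± 0.19 (adjusted p = 5.9e-11). NFATC2 was higher in U937, at 9.10 ± 0.34 (adjusted p = 1.5e-13), with 2620, 2776 and 1882 counts in U937 with diluent and 3, 5 and 7 in ML1 with diluent.

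**Figure D5:**
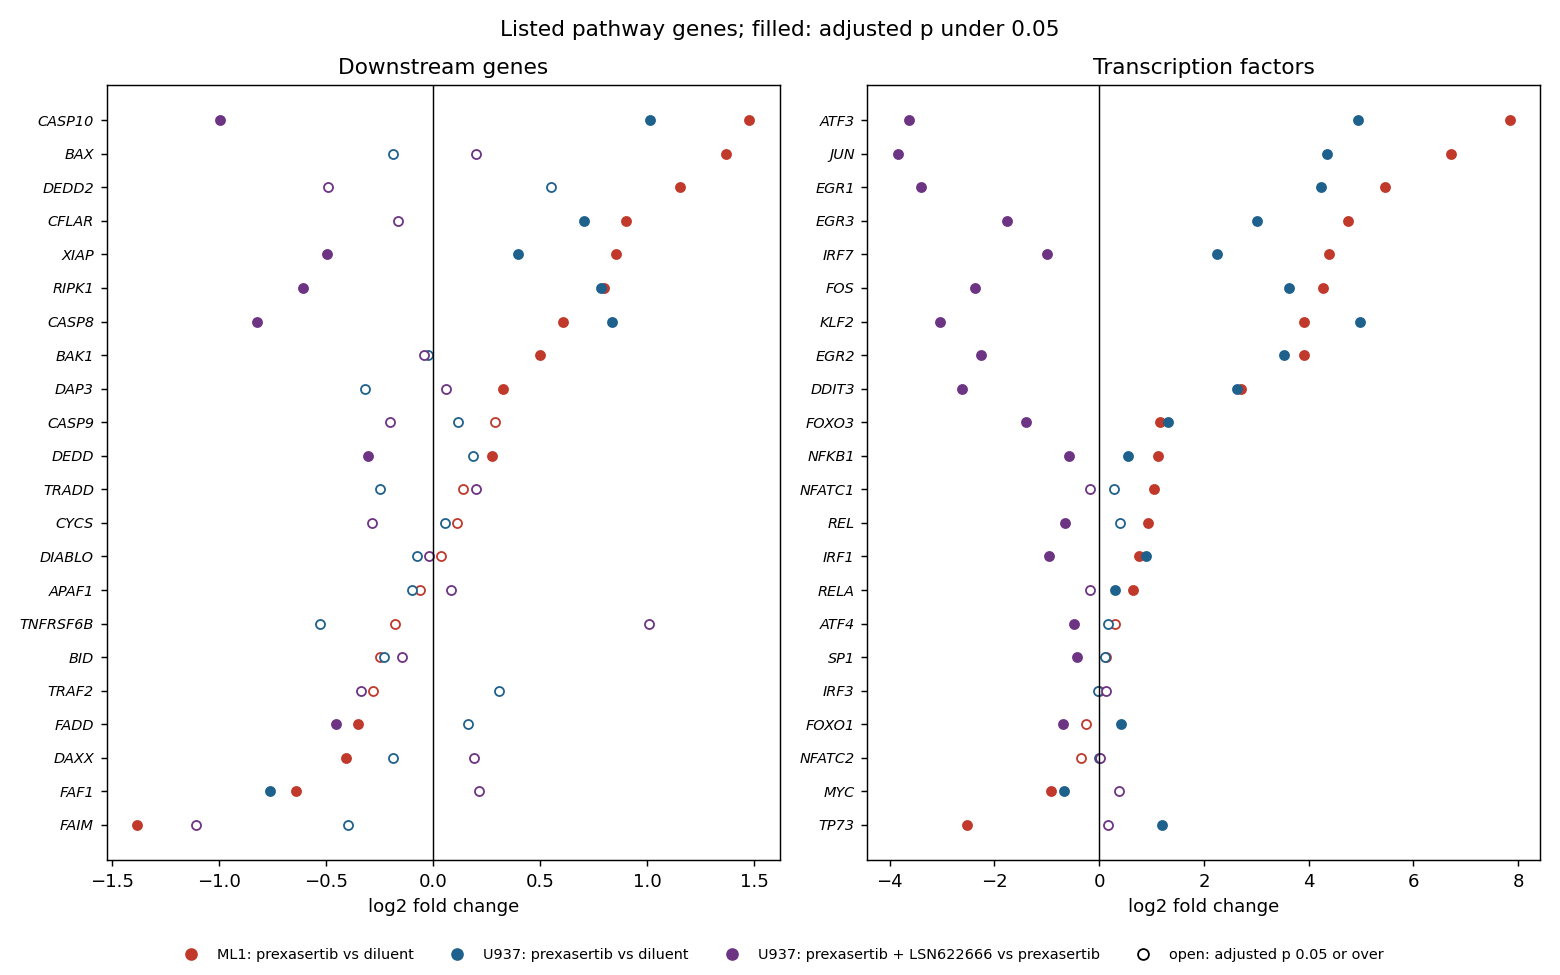
Log2 fold change of tested genes of the downstream list (left) and the list of transcription factors (right), without a few that are not reported here, sorted by the ML1 value; red is ML1 prexasertib against diluent, blue is U937 prexasertib against diluent, purple is the combination against prexasertib in U937, and filled points have an adjusted p under 0.05. JUN and ATF3 lie far to the right in both lines and to the left with LSN622666 added, and DDIT3 lies at 2.71 in ML1, 2.63 in U937 and -2.62 with LSN622666 added.

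The genes whose pattern was most like each of the 6 were taken by Pearson r of log2 CPM over the 15 libraries, among 10925 genes with a mean of at least 5 CPM. These values describe libraries that share line and treatment, and carry no test. TNFSF10 was most like PARP14 (r = 0.9893), XAF1 (0.9884) and DTX3L (0.9882). PARP14 averaged 1405 ± 218 CPM in ML1 with prexasertib and 125 ± 4.22 CPM in ML1 with diluent, against 48.5 ± 9.08 CPM with the combination, 49.5 ± 13.7 CPM with prexasertib and 42.2 ± 6 CPM with diluent in U937. FAS was most like TRIM5 (0.9883), ZNF561 (0.9875) and ZCCHC2 (0.9842).

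Among the TRAIL receptors, TNFRSF10D was most like CCNL1 (0.9935), TIPARP (0.9914) and IFIT3 (0.9878). IFIT3 had 51, 417 and 54.9 CPM in the U937 prexasertib libraries, so the library that was highest for TNFRSF10D was also the highest for it, by a wider margin. TNFRSF10B was most like LOC101928841 (0.9870), RRM2B (0.9864) and NEURL3 (0.9863). TNFRSF10A was most like ATXN1L (0.9843), NR3C1 (0.9814) and TLE4 (0.9787). TNFRSF10C, the receptor with the fewest reads, had the lowest values, with DENND5A (0.9582), PRDM1 (0.9572) and DUSP16 (0.9509). No gene was among the 3 closest of more than 1 of the 6.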

How the data were processed

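RNA was sequenced in 15 libraries from 5 groups, with groups and replicate numbers taken from the labels. The deposited table holds whole-number read counts for each gene symbol, which the authors had not normalized. TopHat2 2.0.14, Bowtie2 2.2.6 and featureCounts 1.4.6 were used with hg38, per the submitters' processing notes, and RNA came from an RNeasy kit and libraries from TruSeq RNA v2, per the labels' protocols. The gene annotation was not given in the sources used here, nor was the strand setting.

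Counts were fitted in R 4.3.3 with edgeR 4.0.16 (TMM, filterByExpr by group, 17243 genes, robust quasi-likelihood F test, 1 mean per group over 15 libraries, 10 residual degrees of freedom, Benjamini-Hochberg adjustment over all tested genes, threshold 0.05). The SE of a log2 fold change is its size over the square root of F. CPM are counts over the TMM-scaled library total, on the usual CPM scale, and lengths are unions of GENCODE v29 basic exons. Myeloid and other markers, 25 downstream genes and 24 factors were listed, and the members and lists were chosen with earlier results of these data known. All members were named, with up to 4 genes of a list with the smallest p per comparison, the 3 genes of highest r per member, and transcripts overlapping a member. Alternatives were DESeq2 1.42.0, other scalings and filters, a replicate block, thinned counts, and leaving out each library. Same-numbered libraries deviated together in the combination and prexasertib groups (correlations 0.409, 0.37 and 0.384), where the numbers are taken to pair them. In each other pair of groups at least 1 was 0.1 or lower. Some genes that met the naming rule are not reported here, while totals and medians include them. The fit was also run on simulated counts, whose spread followed the trend over genes and which held no library that stands apart. The outcome is not reported here and backs no result above. Floors and intervals of counts cover counting error only.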

Additional observations from a re-analysis of the deposited data

Results flagged for a closer look

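The prexasertib effect on the log2 scale differed between the lines for 6 of the 6 genes tested, by the test of the difference itself (edgeR, adjusted over all genes). Over all 17243 tested genes this difference was higher for 12.4% and lower for 12.3%. U937 minus ML1 was -3.35 for TNFSF10, -2.33 for TNFRSF10C, -2.13 for FAS, -1.98 for TNFRSF10B, -1.21 for TNFRSF10A and -1.18 for TNFRSF10D. The call for TNFRSF10A is the least firm, with an adjusted p between 0.0062 and 0.066 when 1 library was left out. Each group held 3 libraries, too few for a check of single libraries that stand apart.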

How the results depend on the processing

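Of 534 recomputed log2 fold changes of the 6 genes, 508 kept their direction and side of the threshold. Among changes that missed the threshold, the sign turned for TNFRSF10A in U937 with prexasertib (-0.21 to 0.27 without 1 library), and with the combination against diluent for TNFRSF10B (0.05 with a stricter filter, 0.08 with upper-quartile factors, -0.07 to 0.01 without 1 library) and FAS (-0.24 to 0.02). With the replicate block, 5 of the 6 genes fell with the combination against prexasertib, 13 of 48 listed genes were called with the combination against diluent (10 rose, 3 fell), 21 for U937 minus ML1, and FAS in U937 against ML1 with diluent stood at -0.42 (adjusted p = 0.024). Without 1 library the listed genes called were 17 to 26 for the combination against prexasertib (17 without combination replicate 3) and 1 to 9 for the combination against diluent (1 without diluent replicate 2, 2 without combination replicate 1 or 2, 3 without diluent replicate 3). The decoy share, in ML1 with prexasertib, ML1 with diluent, and U937 with the combination, prexasertib and diluent, was 29.6%, 25.1%, 23.9%, 34.3% and 20.7% without division by length. It was 37.8%, 31.7%, 31.7%, 43.2% and 27.6% with lengths over all transcripts, an alternative chosen after seeing the data. TNFRSF10C passed the test for the combination against prexasertib in DESeq2 (-1.06, adjusted p = 0.041), without prexasertib replicate 3 (-1.29) and without combination replicate 1 (-1.43). FAS in U937 against ML1 passed without U937 diluent replicate 1 (-0.57), and TNFRSF10B in the fit to those groups alone (adjusted p = 0.045). Over all genes, the combination against diluent had 1186 higher and 709 lower, 1528 and 236 with upper-quartile factors (median log2 fold change 0.106, against 0.001), 2218 and 2065 with the block, 1623 and 1381 in DESeq2. U937 prexasertib against diluent had 2205 lower, 1008 in the fit to those groups alone and 881 without prexasertib replicate 2 (1803 higher, against 3154). The combination against prexasertib had 2046 higher and 2947 lower, 1104 and 1793 without prexasertib replicate 2 and 3239 and 3830 with the block. Without 1 library the combination against diluent had 425 to 1061 higher and 179 to 714 lower. The causes were not tested. Low counts limit TNFRSF10C and FASLG.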
